A study of Mus musculus with 33 samples.

Results

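The sulfation and synthesis of chondroitin was followed through 10 genes, Slc26a2, Papss1, Papss2, Ugdh, Xylt1, Csgalnact1, Chsy1, Chsy3, Chst11 and Chst3, in mouse embryonic stem cell (mESC) cultures directed to tendon or to fibrocartilage. The genes were taken by symbol from a count table of 17120 genes, in which all 10 were present with 1 row each. Bulk RNA sequencing covered 11 groups of 3 replicates. The mESCs carried the ScxGFP tendon reporter and were first aggregated to embryoid bodies with the BMP inhibitor LDN-193189 and then taken to paraxial mesoderm (PM) with LDN-193189 and the Wnt agonist CHIR. PM is named D0 in the sample labels and is day 6 of the whole protocol. From D0 the cells grew in monolayer with TGFβ1, the hedgehog agonist SAG and FGF2 in both arms, together with a retinoid ligand. This was CD1530, which activates retinoic acid receptor γ, or AGN 193109 (AGN), which acts as an inverse agonist on all such receptors. The CD1530 arm is the tendon protocol of the study and the AGN arm its fibrocartilage protocol. Collection times in both arms were D0.25 and D0.75, then D1.5 and D2.5, and last D4. The ligands were used at different concentrations, no arm without a retinoid ligand was among the libraries, and the methods do not say which retinoid, if any, the PM of these libraries had received. The study worked with 3 ScxGFP+ mESC lines and calls the replicates biological, but neither labels nor methods say which line or culture a replicate came from, so p-values measure the spread between these samples, which may be technical in part.

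Chondroitin sulfate is a chain of alternating glucuronic acid and N-acetylgalactosamine that is built in the Golgi on serines of core proteins such as aggrecan. Sulfate enters the cell through transporters and is activated to PAPS, the donor that every sulfotransferase uses, and the sugars come as UDP-sugars. In cartilage the charge of these chains holds water and lets the matrix bear compression, and inherited loss of sulfate transport or of PAPS synthesis gives chondrodysplasia, while tendon carries chondroitin and dermatan chains mainly on small proteoglycans. The 10 genes cover the route in order: sulfate uptake (Slc26a2), PAPS synthesis (Papss1, Papss2), UDP-glucuronate synthesis (Ugdh), the first xylose of the linkage region (Xylt1), the first N-acetylgalactosamine (Csgalnact1), chain extension (Chsy1, Chsy3), and sulfation at position 4 (Chst11) or 6 (Chst3) of N-acetylgalactosamine.

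Total counts ran from 17116084 to 22775275 in 32 libraries and reached 38120841 in AGN D2.5 replicate 1. Levels are given as TMM CPM, counts scaled to the library total and by edgeR's trimmed mean of M values, as mean ± SD of 3 libraries. The tendon regulator Scx rose from 6.41 ± 0.85 CPM in PM to 858 ± 17.4 in CD1530 D4 and 1223 ± 27.8 in AGN D4. The 10 cartilage markers summed to 25.4 to 28.9 CPM per library in PM, 251 to 257 in CD1530 D4 and 3238 to 3372 in AGN D4, with none of the 10 at 0 at D4, so the arms were far apart in cartilage gene expression at D4. The PM regulators Tbx6 and Msgn1 were at 9.56 ± 0.77 and 3.38 ± 0.61 CPM in PM. All 7 PM markers summed to 142 to 152 CPM per library in PM. The sums were 154 to 157 in CD1530 D2.5 and 131 to 144 in AGN D2.5. The sum alone therefore did not set PM clearly apart from D2.5. At D4 the sums were 89.3 to 93.9 in CD1530 and 95.8 to 101 in AGN. Tbx6 and Msgn1, taken singly, did set PM apart from D2.5. The mean of Tbx6 was 0.25 CPM at CD1530 D2.5 and 0.42 at AGN D2.5, and that of Msgn1 was 0.020 and 0.12. By D4, each arm had 5 of the 7 markers called below PM and 1 called above it. Since the libraries are bulk RNA, fewer cells of a type and less RNA per cell cannot be told apart in any value below. The part of the cartilage markers in the differences reported here was not tested.

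Per kilobase of exon, which allows genes to be compared with each other, the 10 genes spanned a wide range in PM. Ugdh had the highest level per length there, 17.2 ± 0.08 CPM per kb, followed by Papss1 with 10.4 ± 0.76 and Chsy1 with 7.73 ± 0.52. Chst3 was lowest, with 0.041 ± 0.008 CPM per kb, which rested on 5, 5 and 6 reads in the 3 PM libraries. Chsy3 followed with 0.14 ± 0.05 CPM per kb from 29, 21 and 12 reads. At D4 the order of the leading genes had changed. In CD1530 D4, Chsy1 (41.1 ± 0.91 CPM per kb) and Papss1 (37.8 ± 0.61) led, then Chst11 (17.02 ± 0.31) and Ugdh (9.68 ± 0.72). In AGN D4, Papss1 (43.8 ± 0.51) and Chsy1 (35.4 ± 1.22) led, then Ugdh (14.9 ± 0.17), Papss2 (14.4 ± 0.43) and Chst11 (7.13 ± 0.43). Of each pair of genes with a like role, Papss1, Chsy1 and Chst11 stood above Papss2, Chsy3 and Chst3 per length in PM and in both arms at D4.

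**Figure D1:**
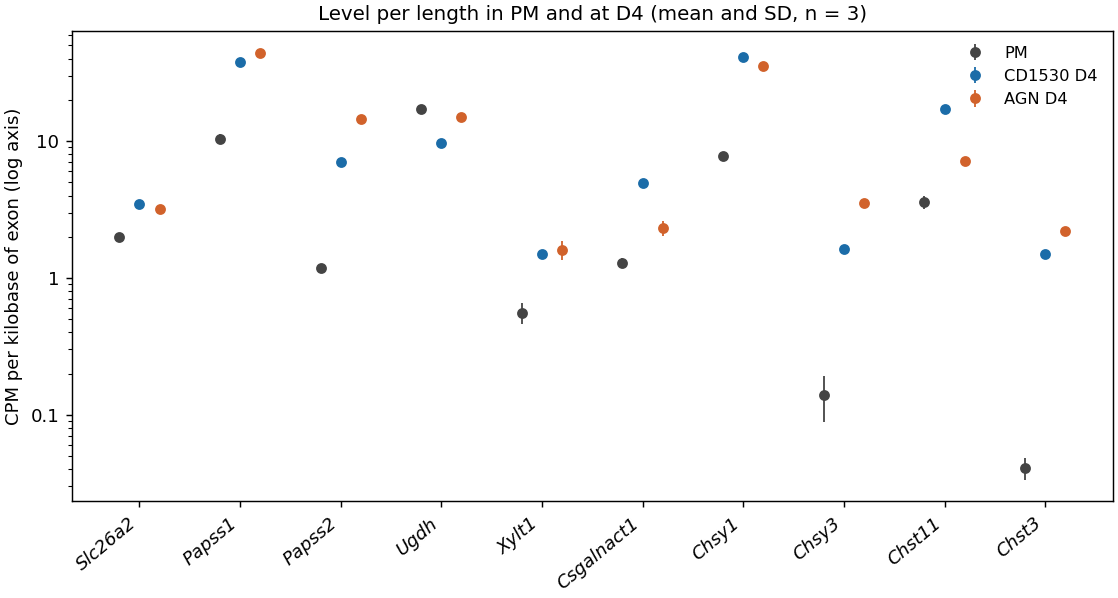
Level per length of the 10 genes, in CPM per kilobase of exon on a log axis, in PM and at D4 of both arms (points, mean; bars, SD; n = 3 libraries). Chst3 and Chsy3 lie lowest in PM, at 0.041 and 0.14 CPM per kb, and Ugdh is the one gene that stands highest in PM.

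The comparison with PM asks how the pathway changed between PM and the induced cultures. Medium, time and cell state changed together between these groups and cannot be told apart. Of the 10 genes, 9 rose and Ugdh fell, in both arms, at D0.25 and at D4. At D0.25, 9 of 10 genes were higher in CD1530 than in PM, against 34.5% of all genes tested, and 1 of 10 was lower, against 33.3%. In AGN at D0.25 the counts were also 9 and 1, against 35.0% and 33.1% of all genes. At D4 they were 9 and 1 again in each arm, against 43.3% higher and 39.9% lower of all genes in CD1530 and 41.6% and 40.4% in AGN. The median log2 fold change of the 10 genes was 1.19 in CD1530 and 1.06 in AGN at D0.25 and 2.09 and 1.80 at D4, where the medians of all genes tested lay between -0.0025 and 0.043. The arms share the PM libraries, so their values are set side by side only. At D0.25 the largest changes were those of Chsy3, with a log2 fold change of 3.15 ± 0.19 (SE) in CD1530 and 3.31 ± 0.19 in AGN, and Chst3, with 3.03 ± 0.30 and 2.98 ± 0.30. Both started from few reads in PM. By D4, Chst3 stood 35.8-fold above PM in CD1530 and 52.8-fold in AGN. The other 7 genes that rose were 1.56-fold to 3.29-fold above PM in CD1530 D0.25 and 1.76-fold to 3.32-fold in AGN D0.25.

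**Figure D2:**
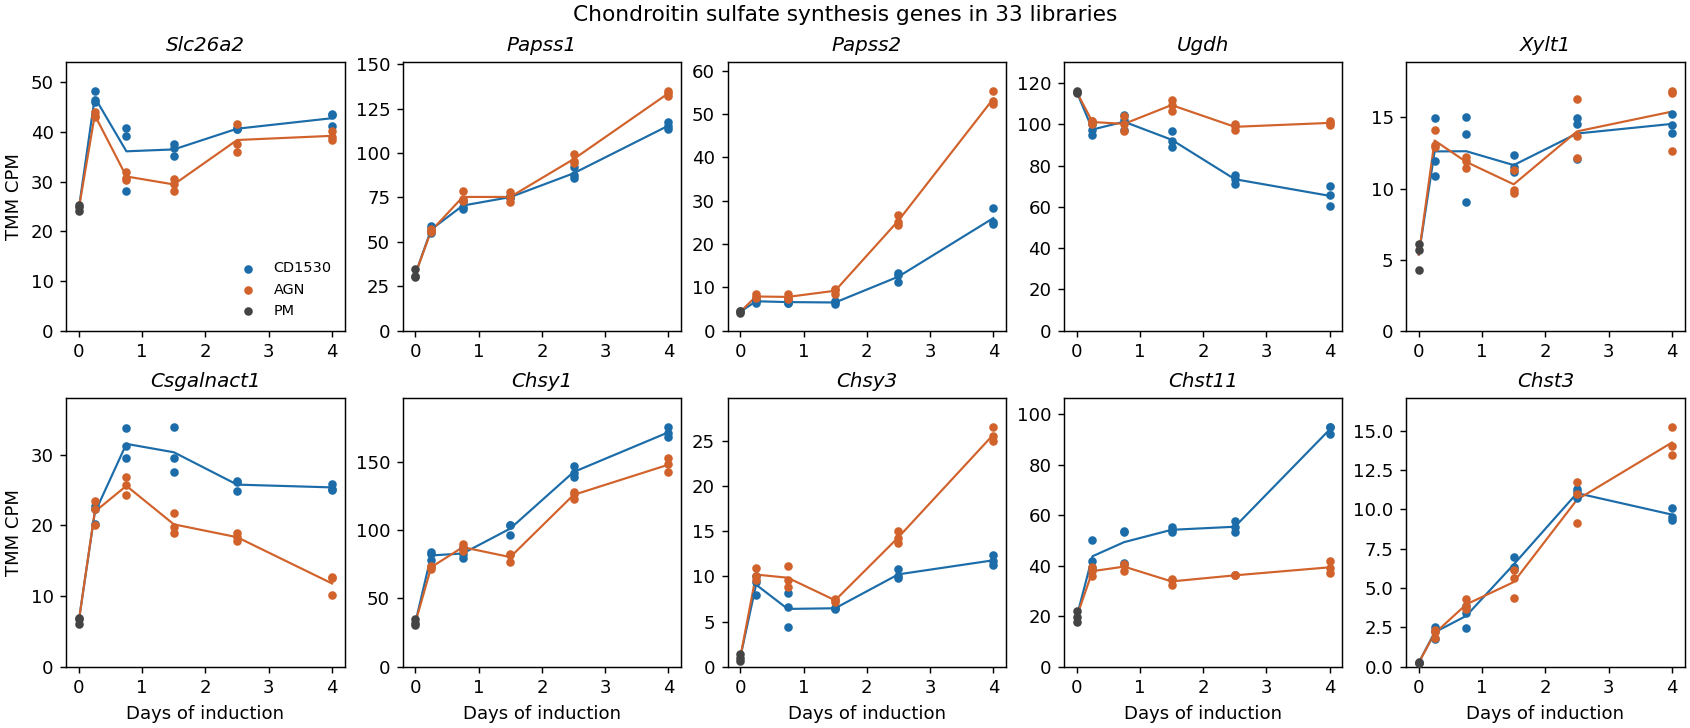
TMM CPM of each gene (y axis, from 0, its own scale per panel) against days of induction (x axis) in all 33 libraries; points are libraries, lines join group means, and both arms start from the same 3 PM libraries. Papss2, Chsy3 and Ugdh end higher in AGN (orange), Chst11 and Csgalnact1 end higher in CD1530 (blue), and Xylt1 overlaps between arms at D4.

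The comparison of CD1530 with AGN at the same time point asks which steps of the pathway differed between the tendon and the fibrocartilage protocol. The number of genes called (edgeR, adjusted p under 0.05) grew from 1 at D0.25 to 8 at D4, and the calls went in opposite directions. At D0.25 only Chsy1 was called, higher in CD1530, against 1.23% of all genes higher and 0.695% lower. At D0.75, 3 genes were higher (Slc26a2, Csgalnact1 and Chst11) and 1 lower in CD1530 (Chsy3), against 7.94% and 10.0% of all genes. At D1.5, 4 were higher (Slc26a2, Csgalnact1, Chsy1 and Chst11) and 2 lower (Papss2 and Ugdh), against 15.2% and 11.8%. At D2.5, 3 were higher (Csgalnact1, Chsy1 and Chst11) and 4 lower (Papss1, Papss2, Chsy3 and Ugdh), against 20.4% and 19.6%. At D4, 3 were higher (Csgalnact1, Chsy1 and Chst11) and 5 lower (Papss1, Papss2, Chsy3, Chst3 and Ugdh), against 22.7% and 24.0% of all genes. The median log2 fold change of the 10 genes at D4 was -0.15, and that of all genes was -0.02.

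**Figure D3:**
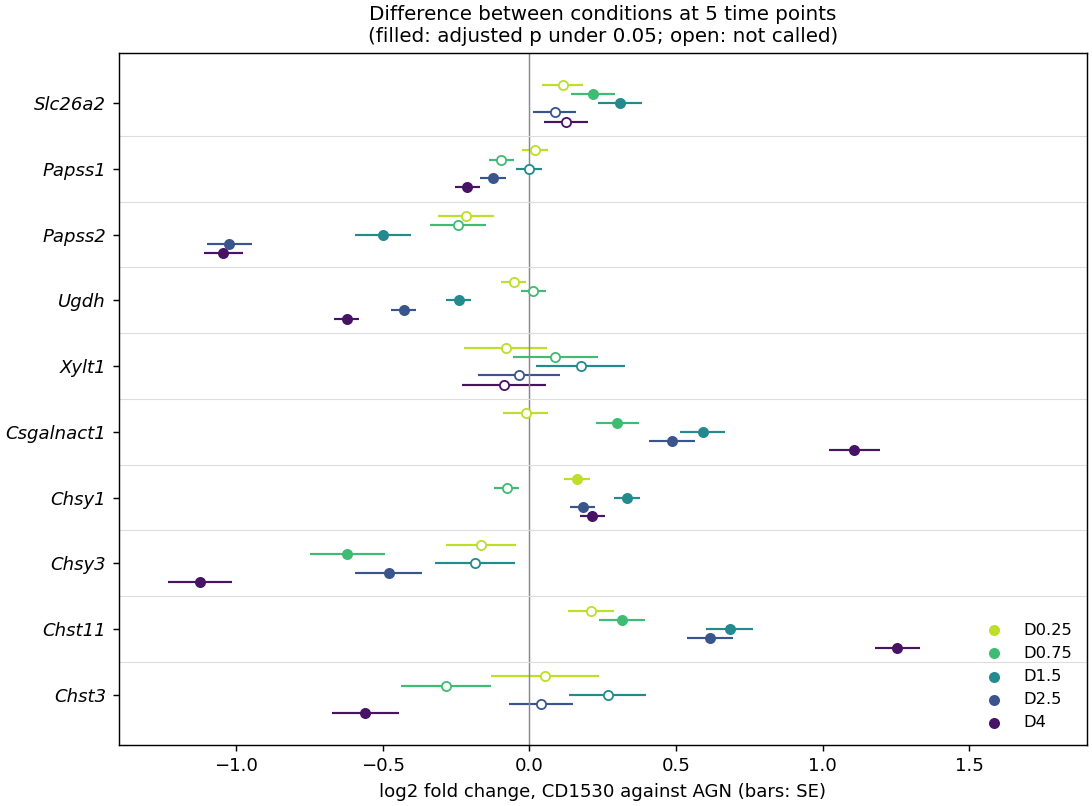
Log2 fold change of CD1530 against AGN (x axis; bars, SE) for each gene (y axis, in pathway order) at 5 time points, from D0.25 (light) to D4 (dark); filled points have an adjusted p under 0.05 and open points do not. At D4 the called values run from -1.12 for Chsy3 to 1.25 for Chst11.

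Slc26a2, the sulfate transporter, had its highest level at the first time point of induction. Its level was 24.8, 24.0 and 25.3 CPM in the PM libraries, 46.0, 46.5 and 48.2 in CD1530 D0.25 and 44.1, 43.1 and 42.9 in AGN D0.25. All 6 libraries at D0.25 stood above PM, and the arms did not overlap but were not called apart (adjusted p = 0.58). It then fell from D0.25 to D0.75, by 0.38 ± 0.07 on the log2 scale in CD1530 (adjusted p = 2.41e-05) and by 0.48 ± 0.07 in AGN (adjusted p = 7.43e-07). The difference between arms was largest at D1.5, where CD1530 was at 37.6, 36.7 and 35.1 CPM and AGN at 30.5, 29.6 and 28.2, or 0.31 ± 0.08 on the log2 scale (adjusted p = 0.00145). At D0.75 Slc26a2 was called with CD1530 at 28.2, 40.8 and 39.2 CPM and AGN at 32.0, 30.4 and 30.7. Replicate 1 of CD1530 D0.75 lay below all 3 AGN libraries there, and this library was also the lowest of its group for Chst3, Chst11, Chsy1, Chsy3, Csgalnact1 and Xylt1. Without it the log2 fold change of Slc26a2 at D0.75 was 0.37 (adjusted p = 6.92e-07) in place of 0.22 ± 0.07 (adjusted p = 0.0348), and 4 of the 10 genes were called at D0.75, as with it. The Slc26a2 call was not firm, as it was lost in 6 of 14 alternative fits, with edgeR adjusted p up to 0.371. These included each fit that left out any other D0.75 library. At D4 the difference was 0.12 ± 0.07 with a 95% interval of -0.03 to 0.28 (adjusted p = 0.17), which leaves room for up to 0.28 in favour of CD1530.

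Papss1 and Papss2 encode the PAPS synthases. Papss1, the more abundant per length, rose in both arms, from 30.6, 34.5 and 30.4 CPM in PM to 117, 114 and 115 in CD1530 D4 and 135, 134 and 132 in AGN D4. The D4 libraries of the arms did not overlap, and the difference was small (log2 fold change -0.21 ± 0.04, adjusted p = 6.16e-05). Papss2 behaved differently in time. It stayed between 6.10 and 9.68 CPM in all 18 libraries from D0.25 to D1.5 and rose from D1.5 on. The arms were already apart at D1.5, where Papss2 was called lower in CD1530. The libraries there held 6.10, 6.77 and 6.72 CPM in CD1530 and 8.55, 9.48 and 9.68 in AGN. At D2.5 the CD1530 libraries held 13.3, 12.9 and 11.3 CPM and the AGN libraries 25.2, 26.8 and 24.3. At D4 they held 24.6, 25.2 and 28.2 CPM and 53.1, 52.3 and 55.4, so that each AGN library held more than any CD1530 library at D4 and CD1530 at D4 overlapped AGN at D2.5. Papss2 was 2.06-fold higher in AGN at D4 (log2 fold change of CD1530 against AGN -1.04 ± 0.07, adjusted p = 5.74e-17), and the difference was -1.02 ± 0.08 at D2.5 (adjusted p = 9.34e-15). The step from D2.5 to D4 was 1.05 ± 0.08 in CD1530 and 1.07 ± 0.07 in AGN, and the difference between these steps was -0.02 ± 0.10 (adjusted p = 0.91).

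Papss2 spans 32595790 to 32667187 on the plus strand of chromosome 19 (GRCm38, GENCODE M21) and has 2 listed starts. Because it had the largest difference between arms at D4 among the sulfate supply genes, the 250 bases before each start are shown (RefSeq, GRCm38.p6, plus strand, chr19:32595465-32595714 and chr19:32619755-32620004). They were searched on both strands for GGGCGG (the core of the GC box bound by Sp1), AGGTCA (a nuclear receptor core), CATTGT (a Sox core) and TATAAA, none of which overlaps another, and capitals mark the matches as they read on the printed strand.
Papss2 first start: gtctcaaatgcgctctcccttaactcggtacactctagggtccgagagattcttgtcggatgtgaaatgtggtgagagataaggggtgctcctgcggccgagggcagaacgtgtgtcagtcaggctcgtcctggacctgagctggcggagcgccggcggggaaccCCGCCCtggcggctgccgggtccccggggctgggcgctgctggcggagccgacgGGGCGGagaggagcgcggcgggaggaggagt
Papss2 second start: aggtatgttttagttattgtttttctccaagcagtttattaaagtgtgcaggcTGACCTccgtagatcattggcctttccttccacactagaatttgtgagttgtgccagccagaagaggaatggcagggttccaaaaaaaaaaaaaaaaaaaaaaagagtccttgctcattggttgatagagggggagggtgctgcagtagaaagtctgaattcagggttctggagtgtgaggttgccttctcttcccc
The first window held 2 GGGCGG matches and the second held 1 AGGTCA match on the opposite strand, at bases -197 to -192 from the start. Of 32851 promoter windows of this length in the table, 32.7% held GGGCGG, 14.02% AGGTCA, 10.7% CATTGT and 12.4% TATAAA. The windows also differed in base composition, with 67.6% G and C in the first and 43.2% in the second, where the median of all windows was 52.4%. A match is a stretch of letters, not a measured binding site, and the counts do not tell which start was used.

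Ugdh makes UDP-glucuronate, the precursor of the glucuronic acid in chondroitin, dermatan, heparan and hyaluronan chains, and was the only one of the 10 genes that fell. Its level was 115, 116 and 116 CPM in PM, 65.7, 70.1 and 60.4 in CD1530 D4 and 102, 99.5 and 101 in AGN D4. In AGN all libraries from D0.25 on lay between 96.7 and 112 CPM, and D4 was below PM (log2 fold change -0.20 ± 0.04, adjusted p = 4.36e-05), whereas in CD1530 it declined from D0.75 on, through 92.0, 96.7 and 89.1 CPM at D1.5 and 73.7, 71.3 and 75.3 at D2.5. The arms did not overlap at D1.5, D2.5 or D4. The log2 fold change of CD1530 against AGN was -0.24 ± 0.04 at D1.5 (adjusted p = 1.60e-05), -0.43 ± 0.04 at D2.5 (adjusted p = 5.82e-11) and -0.62 ± 0.04 at D4 (adjusted p = 1.46e-15). Exons of Ugdh share 158 bases with those of Gm43552 on the same strand, a gene that has no row in the count table, so reads from that stretch are uncertain.

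Xylt1 adds the xylose that starts the linkage region of both chondroitin and heparan chains. It rose from 6.08, 4.30 and 5.71 CPM in PM to 10.9, 14.99 and 11.97 in CD1530 D0.25 and 12.9, 14.2 and 13.04 in AGN D0.25 and stayed at 9.05 to 16.9 CPM in all later libraries. When the 11 groups were ordered by mean, only PM was separated from its neighbour, and the arms overlapped at each of the 5 time points. The D4 difference was -0.09 ± 0.14 with a 95% interval of -0.39 to 0.21 (adjusted p = 0.66), an interval that holds differences of up to 0.39 in favour of AGN.

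Csgalnact1, which places the first N-acetylgalactosamine and so commits the linkage region to chondroitin, peaked early and then parted between arms. It went from 6.94, 6.80 and 6.03 CPM in PM to 22.8, 22.3 and 20.2 in CD1530 D0.25 and 22.3, 20.1 and 23.4 in AGN D0.25, where the arms overlapped. The group means were highest at D0.75 in both arms, with 29.5, 33.7 and 31.3 CPM in CD1530 and 25.6, 26.9 and 24.2 in AGN. From there CD1530 held 24.9 to 33.9 CPM to the end, while AGN fell to 18.9, 17.7 and 18.3 at D2.5 and 12.6, 12.5 and 10.2 at D4. The log2 fold change of CD1530 against AGN was 0.30 ± 0.07 at D0.75 (adjusted p = 0.0025), 0.59 ± 0.08 at D1.5 (adjusted p = 4.87e-08) and 1.11 ± 0.09 at D4 (adjusted p = 4.46e-14). In AGN the step from D2.5 to D4 was a fall by 0.64 ± 0.09 on the log2 scale (adjusted p = 4.76e-08), and in CD1530 it was -0.02 ± 0.08 (adjusted p = 0.83).

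Chsy1 and Chsy3 are chondroitin synthases that extend the chain. Chsy1 was the more abundant per length in every group. It rose from 34.6, 31.8 and 30.4 CPM in PM to 168, 171 and 176 in CD1530 D4 and 149, 153 and 143 in AGN D4. The arms did not overlap at D4, and the difference was small (log2 fold change 0.21 ± 0.04, adjusted p = 4.53e-05). It was larger at D1.5, with 0.33 ± 0.04 (adjusted p = 8.04e-08). The call at D0.25 (0.16 ± 0.04, adjusted p = 0.0444) was lost in 5 of 6 fits that left out 1 of its libraries, with adjusted p up to 0.225. Chsy1 exons share 148 bases with the antisense gene Gm26827, which has no row in the table, and the strand setting of the counts is not given in the sources used here. Chsy3 went the other way. It rose from 1.39, 0.992 and 0.646 CPM in PM to 7.92, 10.01 and 9.33 in CD1530 D0.25 and 10.98, 10.01 and 9.62 in AGN D0.25, and was at 6.40 to 7.48 CPM in all 6 libraries at D1.5. It ended at 12.4, 11.3 and 11.7 in CD1530 D4 and 25.0, 25.5 and 26.6 in AGN D4. At D4 every AGN library was above every CD1530 library, and Chsy3 was 2.18-fold higher in AGN (log2 fold change -1.12 ± 0.11, adjusted p = 1.67e-11). It rose from D1.5 to D2.5 in both arms, by 0.66 ± 0.13 in CD1530 (adjusted p = 7.51e-05) and 0.96 ± 0.12 in AGN (adjusted p = 1.21e-08). From D2.5 to D4 it rose by 0.85 ± 0.10 in AGN (adjusted p = 3.30e-09), and in CD1530 the step was 0.21 ± 0.12 (adjusted p = 0.15).

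Chst11 transfers sulfate to position 4 of N-acetylgalactosamine and showed the largest difference of the 10 genes in favour of CD1530. It was at 22.01, 19.6 and 17.6 CPM in PM and had reached 39.3, 50.3 and 41.8 in CD1530 D0.25 and 39.7, 36.1 and 37.9 in AGN D0.25, with overlap between arms. In AGN it then remained between 32.5 and 41.9 CPM to the end. In CD1530 it was at 54.3, 53.3 and 55.2 CPM at D1.5, 55.2, 57.8 and 53.4 at D2.5 and 95.1, 95.1 and 92.1 at D4, above all AGN libraries at each of these times. The log2 fold change was 0.68 ± 0.08 at D1.5 (adjusted p = 1.36e-08), 0.62 ± 0.08 at D2.5 (adjusted p = 4.95e-08) and 1.25 ± 0.08 at D4 (adjusted p = 6.39e-16), or 2.39-fold. The step from D2.5 to D4 in CD1530 was a rise of 0.76 ± 0.07 (adjusted p = 6.83e-11), and in AGN it was 0.12 ± 0.08 (adjusted p = 0.20).

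Chst3 transfers sulfate to position 6 and had the widest range of the 10 genes, 53.6-fold between its lowest and highest group mean. It was at 0.239, 0.236 and 0.323 CPM in PM and climbed in both arms to 11.3, 10.7 and 11.1 in CD1530 D2.5 and 11.8, 10.95 and 9.16 in AGN D2.5, with overlap between arms at D0.25, D0.75 and D2.5. None of the first 4 time points was called, with adjusted p between 0.136 and 0.959. At D4 the CD1530 libraries held 9.55, 9.36 and 10.1 CPM, with 15.3, 14.03 and 13.5 in AGN, where the libraries separated (log2 fold change -0.56 ± 0.11, adjusted p = 6.67e-05), or 1.47-fold higher in AGN. It rose by 0.41 ± 0.11 from D2.5 to D4 in AGN (adjusted p = 0.00127), and in CD1530 the step was -0.19 ± 0.12 (adjusted p = 0.16).

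Chst11 and Chst3 lie on the same chromosome, Chst11 at 82985498 to 83195900 on the plus strand and Chst3 at 60181532 to 60219260 on the minus strand of chromosome 10 (GRCm38). The 250 bases before their starts are shown because the difference between arms at D4 had opposite signs for these sulfotransferases (RefSeq, GRCm38.p6, chr10:82985247-82985496 on the plus strand and chr10:60219261-60219510 on the minus strand). Capitals again mark matches to the searched motifs.
Chst11: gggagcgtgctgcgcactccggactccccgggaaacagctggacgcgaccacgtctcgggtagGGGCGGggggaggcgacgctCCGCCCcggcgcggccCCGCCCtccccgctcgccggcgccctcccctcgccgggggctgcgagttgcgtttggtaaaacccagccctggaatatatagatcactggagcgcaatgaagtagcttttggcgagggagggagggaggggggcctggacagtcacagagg
Chst3: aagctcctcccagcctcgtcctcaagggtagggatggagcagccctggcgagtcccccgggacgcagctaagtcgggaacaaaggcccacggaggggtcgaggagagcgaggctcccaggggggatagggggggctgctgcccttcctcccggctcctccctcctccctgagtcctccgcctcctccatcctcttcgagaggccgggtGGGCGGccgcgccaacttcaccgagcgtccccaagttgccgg
The Chst11 window held 3 GGGCGG matches and that of Chst3 held 1, and neither held any of the other 3 motifs. Both were rich in G and C, with 70.0% and 69.6%. Promoter windows were listed for 6 of the 10 genes.

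Ratios within a library do not depend on its scaling and set the members of each pair against each other. They were chosen after the levels had been seen, so they describe the pattern and add no independent support. Per length, the Papss2 to Papss1 ratio was 0.172, 0.182 and 0.201 in CD1530 D4 and 0.323, 0.320 and 0.344 in AGN D4, 1.78-fold higher in AGN. The Chsy3 to Chsy1 ratio was 0.0425, 0.0380 and 0.0384 in CD1530 D4 and 0.0972, 0.0966 and 0.108 in AGN D4, 2.53-fold higher in AGN. The Chst11 to Chst3 ratio was 11.7, 11.9 and 10.7 in CD1530 D4 and 2.87, 3.51 and 3.41 in AGN D4, 3.52-fold higher in CD1530. It covers these genes only and does not measure all position 4 against all position 6 transferase RNA. Other position 4 transferases, such as Chst12 and Chst13, are left out of it. The arms did not overlap in any of the 3 ratios at D4, with a two-sided exact permutation p of 0.1, the smallest that 3 libraries against 3 allow. Over time the Chst11 to Chst3 ratio fell from 89.9 ± 23.1 in PM to 5.92 ± 0.36 in CD1530 D2.5 and 4.05 ± 0.53 in AGN D2.5. Between D2.5 and D4 it then went up to 11.5 ± 0.66 in CD1530 and was 3.26 ± 0.35 in AGN. The PM value rests on the few Chst3 reads there.

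**Figure D4:**
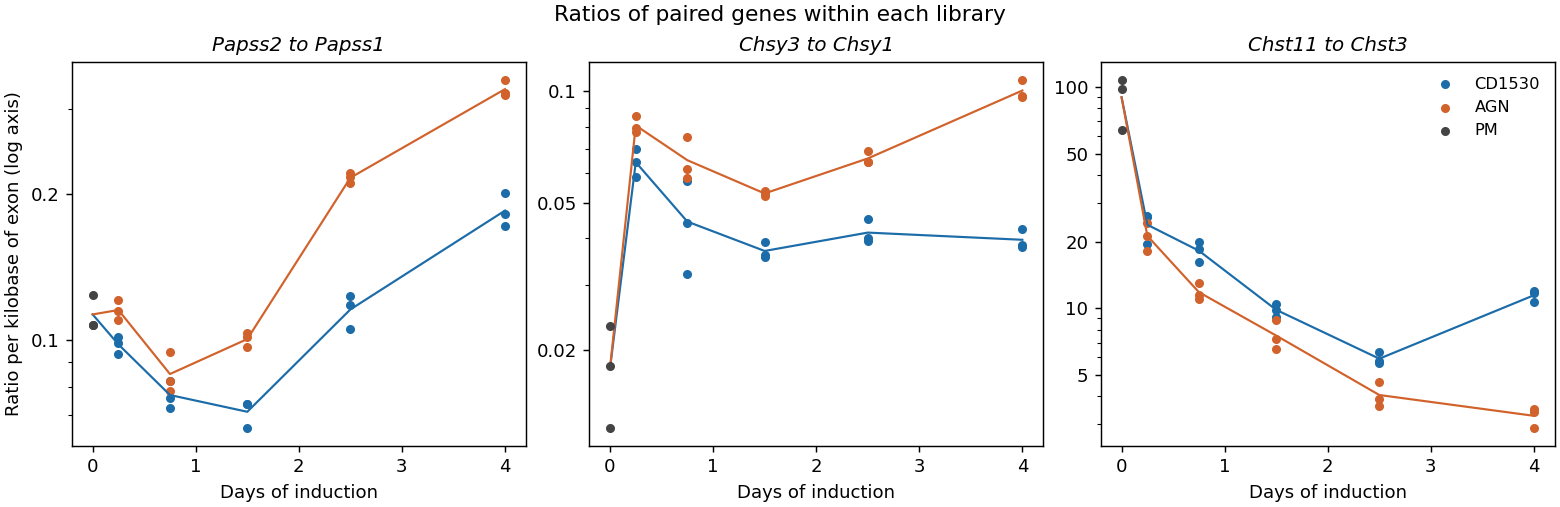
Ratio per kilobase of exon within each library (y axis, log) for Papss2 to Papss1, Chsy3 to Chsy1 and Chst11 to Chst3 against days of induction (x axis); points are libraries and lines join group means. At D4 the first and second ratios are higher in AGN (0.329 against 0.185, and 0.1004 against 0.0397) and the third is higher in CD1530 (11.5 against 3.26).

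Whether the difference between arms depended on time was tested directly. Over the 5 time points, 8 of the 10 genes had an interaction of condition and time, where 48.8% of all genes did. Slc26a2 (adjusted p = 0.286) and Xylt1 (adjusted p = 0.711) did not pass. Without CD1530 D0.75 replicate 1 the interaction of Slc26a2 passed (adjusted p = 0.00191), which made 9 of 10. For the step from D2.5 to D4 alone, 5 of the 10 genes differed between arms, against 26.8% of all genes. The step was more positive in CD1530 for Chst11 (0.64 ± 0.11) and Csgalnact1 (0.62 ± 0.12) and more positive in AGN for Chsy3 (-0.64 ± 0.16), Chst3 (-0.60 ± 0.16) and Ugdh (-0.19 ± 0.06). That of Ugdh was lost without CD1530 D4 replicate 3 (adjusted p = 0.0889).

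The 10 genes did not share 1 time course. Of the 11 groups, the highest mean was in AGN D4 for Papss1, Papss2, Chst3, Chsy3 and Xylt1, in CD1530 D4 for Chsy1 and Chst11, in CD1530 D0.75 for Csgalnact1, in CD1530 D0.25 for Slc26a2 and in PM for Ugdh. The highest mean was 53.6-fold the lowest for Chst3, 25.5-fold for Chsy3 and 12.2-fold for Papss2, 4.20-fold to 5.32-fold for Papss1, Chst11, Csgalnact1 and Chsy1, and 1.77-fold to 2.87-fold for Ugdh, Slc26a2 and Xylt1. With the groups ordered by mean, neighbours overlapped in 3 of 10 places for Papss1, 4 for Papss2, Chsy1 and Chsy3, 5 for Chst3 and Csgalnact1, 6 for Slc26a2 and Ugdh and 7 for Chst11, so that most of the middle ranks of the latter 3 are not distinct. At the top, AGN D4 was clear of its neighbour for Papss1, Papss2, Chst3 and Chsy3 and CD1530 D4 for Chst11 and Chsy1, whereas CD1530 D0.75 and CD1530 D1.5 overlapped for Csgalnact1. Over the 11 group means, Pearson's r of log2 levels was 0.96 between Papss1 and Chst3, 0.95 between Papss1 and Chsy1 and 0.93 between Chsy3 and Xylt1, while Ugdh was negative with each of the other 9, down to -0.88 with Chst11, and Csgalnact1 had r = -0.10 with Papss2. These are descriptions over 11 points that share the PM start and the time axis. Among 12210 genes with a mean of at least 5 CPM, the patterns most like that of Chst11 over the 11 means were those of Cfl2 (r = 0.985), Homer3 (0.980) and Fam163a (0.979). For Chsy3 they were Dnajc10 (0.975), Rnf217 (0.971) and Mid2 (0.969). For Csgalnact1 they were Kdr (0.971), Hbegf (0.967) and Marcksl1 (0.965). At D0.75 Kdr, the VEGF receptor of endothelial cells, had a level of 98.6 CPM in CD1530 and of 52.0 in AGN, and at D4 of 45.3 and 21.2. The 7 endothelial markers summed to 460 to 495 CPM per library in CD1530 and 291 to 310 in AGN at D0.75, and 163 to 179 and 152 to 162 at D4, with none at 0. At D0.75, 6 of the 7 were higher in CD1530, against 7.94% of all genes. At D4, 3 were higher and 2 lower, against 22.7% and 24.0% of all genes. The part of the endothelial markers in the Csgalnact1 difference was not tested.

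The rest of glycosaminoglycan metabolism was described through 9 lists with 76 genes, of which 72 were in the table. Against PM, 63 of the 72 were higher and 5 lower in CD1530 D4, and 60 were higher and 3 lower in AGN D4. These are 87.5% and 83.3% higher, where 43.3% and 41.6% of all genes were, with median log2 fold changes of 1.32 and 1.24. Between arms at D4, 18 were higher and 32 lower in CD1530 and 22 were not called. The 25.0% higher lay near the 22.7% of all genes, and the 44.4% lower compare with 24.0% of all genes. The median log2 fold change was -0.11 beside -0.02 for all genes. Of 6 linkage region genes 1 was higher and 3 lower, of 3 further polymerisation genes 1 and 1, of 8 sulfation and epimerisation genes 3 and 2, and of 13 genes of precursor supply and transport 2 and 5. Of 9 core proteins 3 were higher and 5 lower, of 17 heparan sulfate genes 3 and 10, of 3 hyaluronan synthases 0 and 1, of 9 lysosomal genes 3 and 3, and of 4 keratan sulfate genes 2 and 2.

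Core proteins carry the chains, and of the 72 genes the largest difference was that of the core protein gene Acan. Acan, which encodes aggrecan, ranged from 3.99 to 5.34 CPM in CD1530 D4 and from 203 to 227 in AGN D4, a log2 fold change of -5.53 ± 0.09. Cspg4 (-1.22 ± 0.10), a membrane proteoglycan, and Epyc (-1.42 ± 0.13), a small proteoglycan of cartilage, were also higher in AGN. Dcn, which encodes the small proteoglycan decorin, was at 1054 ± 8.1 CPM in CD1530 D4 and 387 ± 1.7 in AGN D4 (1.45 ± 0.05). Bgn, which encodes biglycan, another small proteoglycan of tendon, went the other way, with a mean of 1296 CPM in CD1530 D4 and 2692 in AGN D4 (-1.05 ± 0.05), and so did Vcan, which encodes versican (-1.01 ± 0.14). Bgn and Vcan fell outside the 12 genes named by size of change and were added after their values were seen. Of the 7 tendon markers, 1 was higher and 4 were lower in CD1530 than in AGN at D4, against 22.7% and 24.0% of all genes. Ptprz1 (1.69 ± 0.17) and Cspg5 (1.55 ± 0.22), proteoglycans best known from the nervous system, were higher in CD1530, from under 10 CPM in either arm. Of the 8 neural markers, 6 were higher and 2 lower in CD1530 than in AGN at D4, against 22.7% and 24.0% of all genes. The 8 summed to 106 to 111 CPM per library in CD1530 D4 and 64.3 to 68.1 in AGN D4, with 1 of the 8 at 0 in AGN. In PM the sum was 139 to 148, above both arms at D4. The part of the neural markers in the values of Ptprz1 and Cspg5 was not tested.

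In the other branches, Has2, the main hyaluronan synthase of mesenchyme, was higher in AGN D4 (-1.22 ± 0.06, with 67.4 ± 4.92 CPM against 28.8 ± 0.88). Among the heparan sulfate enzymes, Ndst3 (-2.36 ± 0.20), Extl1 (-1.48 ± 0.25) and Hs3st3a1 (-1.27 ± 0.13) were higher in AGN and Hs3st1 (1.46 ± 0.14) was higher in CD1530. The levels behind the first 2 were low. Ndst3 was at 0.86 ± 0.13 CPM in CD1530 D4 and 4.45 ± 0.35 in AGN D4. Extl1 was at 1.17 ± 0.45 and 3.30 ± 0.18 CPM, and had been at 3.44 ± 0.19 CPM in PM. The keratan sulfate sulfotransferase Chst1 was higher in AGN (-2.01 ± 0.09). Chst13, a second position 4 sulfotransferase of chondroitin, was named after its values were seen. It had 18, 17 and 22 reads in the CD1530 D4 libraries and 1, 2 and 0 in AGN D4, and its fitted fold change depends on so few reads that none is given. Chst12, another position 4 transferase of chondroitin, was lower in CD1530 (-0.46, adjusted p = 2.94e-06). Chst14, which acts on position 4 in dermatan chains, had a log2 fold change of -0.12 ± 0.05 and was not called (adjusted p = 0.0733). Chst15, which adds a further sulfate at position 6, was higher in CD1530 (0.66, adjusted p = 1.77e-13). These 3 genes were likewise named after their values were seen.

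**Figure D5:**
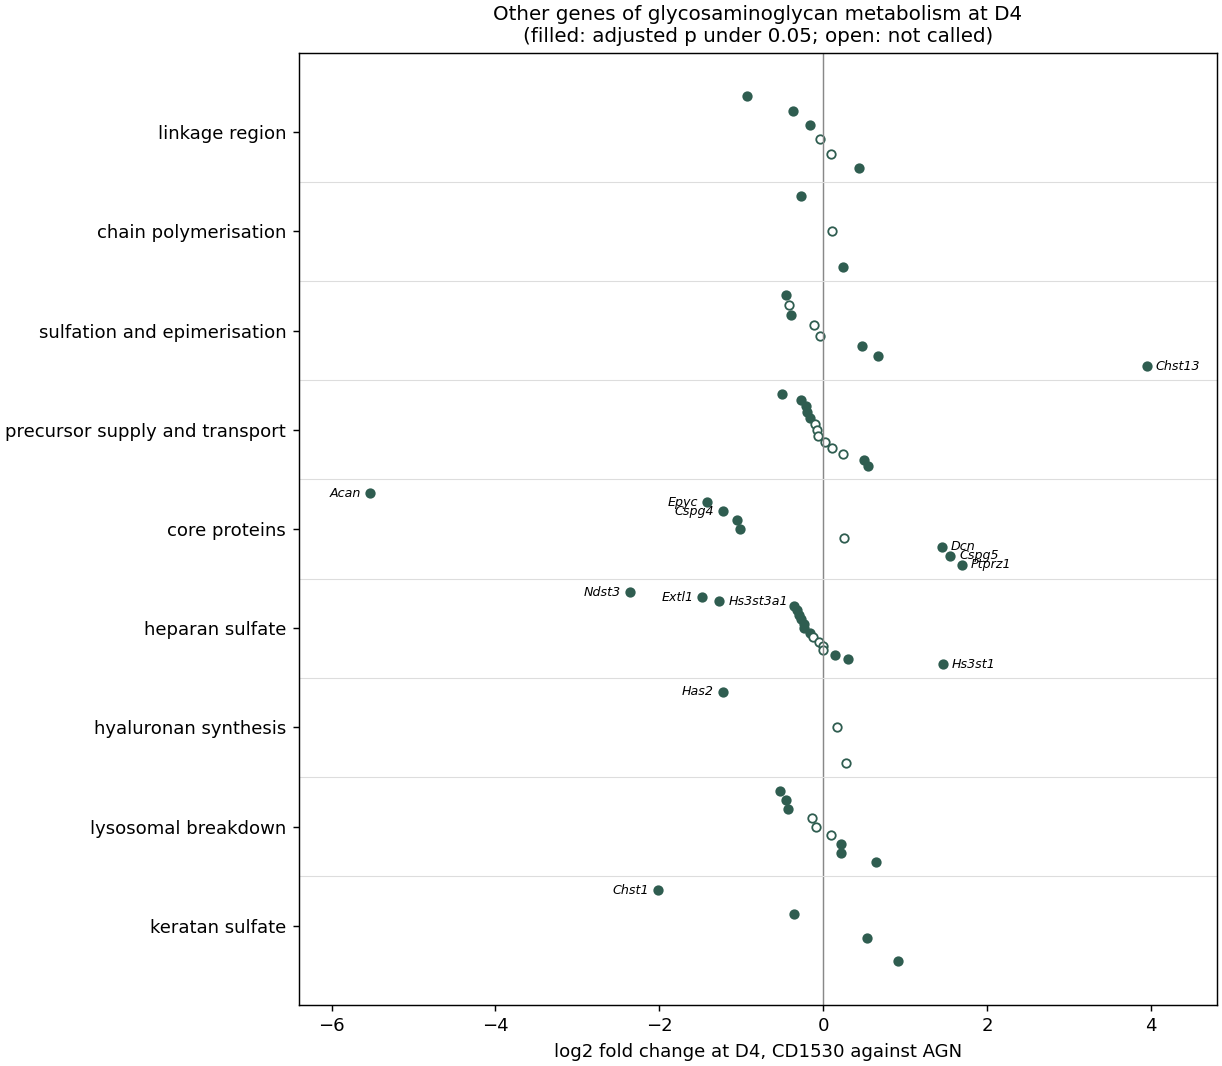
Log2 fold change of CD1530 against AGN at D4 (x axis) for 72 other genes of glycosaminoglycan metabolism in 9 lists (y axis, 1 point per gene, spread within a list for legibility); filled points have an adjusted p under 0.05. Acan lies farthest to the left, at -5.53, and the value of Chst13, farthest to the right, rests on 3 reads in AGN.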

How the data were processed

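RNA-seq of 33 libraries was aligned to GRCm38 by the authors with STAR and counted per gene with featureCounts (tools per the labels), and the deposited values are raw counts per gene, not normalised. Which annotation release, strand setting and rule for multiply aligned reads were used is not given in the sources used here. The table appears filtered on low counts, as every gene reached 0.611 CPM or more in at least 3 libraries. Samples were grouped by the labels' condition and day.

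Counts were fitted in R 4.3.3 with edgeR 4.0.16 (TMM, filterByExpr, which removed none of the 17120 genes, and the robust quasi-likelihood F test) with 1 mean for each of the 11 groups, over all 33 libraries, and no covariates. P-values were adjusted by Benjamini-Hochberg over all genes separately for 19 contrasts, with calls at an adjusted p under 0.05. Standard errors are on the log2 scale, and 95% intervals use 22 residual degrees of freedom. Depth was 17116084 to 38120841 counts per library, which limits mainly Chst3 and Chsy3 in PM, and the biological coefficient of variation was 4.68%. The fit was tested on simulated data for CD1530 against AGN at D4 only, with 200 genes changed by 1 on the log2 scale. Of these, 175 were recovered, and 13 of the 188 calls were false. As many genes were raised as lowered, and all others were set equal between the arms. In the data 7980 of 17120 genes were called in this contrast, many with smaller changes, so these rates need not hold there. Exon lengths, positions and overlaps came from GENCODE M21, which matched 17117 of 17120 identifiers, and promoter windows from RefSeq (GRCm38.p6). Tables and plots were made in Python 3.11.15 with pandas 2.3.3 and matplotlib 3.10.9.

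The genes, the lists and the tests were chosen with earlier results of these data known. Named genes of other lists were those called at D4 with a log2 fold change of 1 or more in either direction and a mean of at least 1 CPM. Of 14 such genes, the 12 with the largest change were named, which left out Bgn and Vcan. Alternatives were DESeq2 size factors, library size only, a fit without robust estimation, no filter, a 1 CPM minimum in 3 libraries, the replicate number as a block, a fit of the compared groups alone, DESeq2 1.42.0, and fits that each omit 1 library. The ratios of paired genes were added after the data were seen.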

Additional observations from a re-analysis of the deposited data

Results flagged for a closer look

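For most of the 10 genes the gap between the arms changed with time, and each case below is listed because a direct test of that change passed. For the step from D2.5 to D4, the change in CD1530 minus the change in AGN was 0.64 on the log2 scale for Chst11, 0.62 for Csgalnact1, -0.64 for Chsy3, -0.60 for Chst3 and -0.19 for Ugdh. Over all 5 time points the adjusted p of the interaction was 1.41e-11 for Ugdh, 3.82e-09 for Csgalnact1, 4.74e-09 for Papss2, 4.99e-09 for Chst11, 1.56e-05 for Chsy1, 1.97e-05 for Chsy3, 0.000937 for Chst3 and 0.0104 for Papss1. The groups hold 3 libraries each, so no single library was tested for standing apart.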

How the results depend on the processing

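Of the alternatives run on values of single genes, 2194 kept direction and call, 24 lost a call, 2 gained one and 26 changed sign. The fit without a filter is the same as the main fit, as the filter removed no gene. Its values are among those kept and say nothing about stability. At D4, 8 members were called in each alternative except the fit of the compared groups only, which called 9. Against PM, 10 were called in each alternative. At D0.25 the number called was 0 in place of 1 when the fit was not robust, and 0 to 1 with a library left out. At D0.75 it was 1 in place of 4 in a fit of the compared groups only, where the calls of Slc26a2, Chst11 and Chsy3 were lost. That fit called 804 genes in place of 329 at D0.25 and 1236 in place of 3076 at D0.75, and at D4 it added Slc26a2 (adjusted p = 0.0217). With a library left out, counts ran from 3 to 4 at D0.75, 6 to 7 at D2.5, 8 to 9 for the interaction over time and 4 to 5 for the D2.5 to D4 interaction. Single calls lost were Slc26a2 at D0.75 without CD1530 replicate 2 or 3 or any 1 AGN replicate, and Papss1 at D2.5 without CD1530 replicate 2 or 3 or AGN replicate 2 and with library size only (adjusted p = 0.0806), which also ended its interaction over time (0.0518). Causes were not tested.

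Values that changed sign were small and uncalled. The difference in the D2.5 to D4 step of Papss2 was 0.020 with the compared groups only. With a library left out the log2 fold change ran from -0.060 to 0.17 for Chst3 at D0.25, -0.042 to 0.13 for Chst3 at D2.5, -0.072 to 0.039 for Csgalnact1 at D0.25, -0.0073 to 0.041 for Papss1 at D0.25, -0.030 to 0.025 for Papss1 at D1.5, -0.011 to 0.042 for Ugdh at D0.75, and for Xylt1 -0.22 to 0.0096 at D0.25, -0.050 to 0.28 at D0.75 and -0.13 to 0.11 at D2.5. The D2.5 to D4 interaction ran from -0.088 to 0.025 for Papss2, -0.030 to 0.078 for Slc26a2 and -0.20 to 0.039 for Xylt1.

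Scaling by library size only moved the median of all genes against PM at D4 by -0.15 in AGN and -0.11 in CD1530, and 9 members were still higher and 1 lower. With the replicate number as a block, 8 members were called at D4 and 0 of 139 gene values changed call or direction. The numbers did not pair the libraries: 0 of 15 pairs had a correlation over 0.1 (range -0.13 to 0.055), and 10 of 33 libraries were closest to their own number.

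Depth limits the fold changes of Chst3 and Chsy3 against PM, where few reads were counted.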
